A study of Mus musculus with 3 samples.

Results

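Transfer RNA (tRNA) genes are the short genes, transcribed by RNA polymerase III (Pol III), whose products carry amino acids to the ribosome. They were examined in lists of peaks of H3K27ac, the acetylation of histone H3 at a lysine of its tail that marks active promoters and enhancers. The members are all genes of biotype tRNA on chromosomes 1 to 19 and X in the RefSeq gene table of mm10 (GRCm38.p6), each taken with 1 kb on either side. There were 408 such genes among all annotated genes of these chromosomes. Of these, 403 could be placed. The other 5 (Trnat-ugu, Trnap-ugg, Trnav-aac, Trnal-aag and Trnav-cac) have listed positions below 3 Mb of their chromosome, where neither replicate had a peak, and were left out of the counts.

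The peaks come from chromatin immunoprecipitation and sequencing in thymocytes of wild-type C57BL/6J mice of 5 to 7 weeks. The sorted cells were double negative, without CD4 and CD8, and CD25+ CD44-/+, the stages over which the T cell receptor beta gene is rearranged. There were 2 H3K27ac samples, called replicates 1 and 2, and both belong to the same group. The labels do not say whether they came from separate animals or from pooled ones. Another sample is an input taken before the H3K27ac antibody, and it was not analysed here. No group was thus compared with another, no test was made, and every count below is a description.

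A tRNA gene carries its promoter inside itself. Its A box and B box are bound by the factor TFIIIC, which brings TFIIIB and then Pol III to the gene. Mammalian tRNA genes occur both singly and in large clusters, some of them among histone genes, and each amino acid is served by several copies. Not every copy is transcribed in a given cell type, and active copies are known to carry marks of open chromatin on the nucleosomes beside them.

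The promoter windows of neighbouring genes are printed here because they hold tRNA genes and show how near to a second start site such a gene can lie. The RefSeq promoter table (GRCm38.p6) covers 250 bases before to 50 bases after the start of coding and lncRNA genes and lists no tRNA genes of its own. In 10 of its windows lay a tRNA gene, whole in 4 cases and in part in 6. The 5 windows below are read 5′ to 3′ on the strand of the named gene, and capitals mark the bases of the tRNA gene. They are Polr3e with n-TLaag4 (chr7:120917528-120917827, plus strand), Gm46404 with n-TVcac9 (chr13:23445922-23446221, minus strand), Gm38989 with n-TTagt9 (chr7:35234765-35235064, minus strand), Polg with n-TRtcg5 (chr7:79466224-79466523, minus strand) and Gm32420 with n-TAagc16 (chr13:21222490-21222789, minus strand).
Polr3e: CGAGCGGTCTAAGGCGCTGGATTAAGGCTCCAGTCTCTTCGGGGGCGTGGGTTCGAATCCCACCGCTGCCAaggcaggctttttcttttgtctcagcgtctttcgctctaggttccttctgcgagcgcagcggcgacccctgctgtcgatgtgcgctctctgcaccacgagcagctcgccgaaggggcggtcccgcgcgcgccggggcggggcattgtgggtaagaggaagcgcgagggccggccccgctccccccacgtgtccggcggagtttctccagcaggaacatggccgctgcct
Gm46404: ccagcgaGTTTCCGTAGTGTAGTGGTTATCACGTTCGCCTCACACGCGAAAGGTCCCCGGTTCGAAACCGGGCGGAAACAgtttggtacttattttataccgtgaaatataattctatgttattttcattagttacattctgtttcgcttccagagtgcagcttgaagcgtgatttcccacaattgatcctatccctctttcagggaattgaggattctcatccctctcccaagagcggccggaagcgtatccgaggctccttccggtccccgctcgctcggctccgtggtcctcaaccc
Gm38989: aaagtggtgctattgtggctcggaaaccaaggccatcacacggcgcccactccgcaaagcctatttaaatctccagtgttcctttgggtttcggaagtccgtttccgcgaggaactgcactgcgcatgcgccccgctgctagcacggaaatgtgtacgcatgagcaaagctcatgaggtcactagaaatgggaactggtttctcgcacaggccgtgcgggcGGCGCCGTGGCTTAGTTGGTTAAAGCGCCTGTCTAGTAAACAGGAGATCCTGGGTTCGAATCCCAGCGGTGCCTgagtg
Polg: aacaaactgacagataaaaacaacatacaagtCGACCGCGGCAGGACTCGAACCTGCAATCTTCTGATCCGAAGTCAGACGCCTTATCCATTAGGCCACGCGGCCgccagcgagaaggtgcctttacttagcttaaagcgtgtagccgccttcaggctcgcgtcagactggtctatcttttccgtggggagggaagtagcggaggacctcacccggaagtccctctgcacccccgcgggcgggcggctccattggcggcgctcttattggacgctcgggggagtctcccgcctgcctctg
Gm32420: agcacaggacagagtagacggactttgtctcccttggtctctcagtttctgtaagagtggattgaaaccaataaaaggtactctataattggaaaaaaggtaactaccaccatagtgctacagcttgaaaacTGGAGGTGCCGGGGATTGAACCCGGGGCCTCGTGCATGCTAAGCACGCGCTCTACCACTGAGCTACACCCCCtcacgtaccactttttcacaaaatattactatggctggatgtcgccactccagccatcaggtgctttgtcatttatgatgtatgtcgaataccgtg

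The first 2 of these windows belong to tRNA genes with a peak in both replicates. The third had a peak in replicate 1 alone, and the last 2 had none. The tRNA gene n-TLaag4 ends 180 bp before the start of Polr3e, the gene of a Pol III subunit, and n-TVcac9 lies 171 bp from the start of the lncRNA gene Gm46404. The B box core GGTTCGA, searched on both strands, was found in the tRNA bases of 6 of the 10 windows. Among those that hold a whole tRNA gene it was in 3 of 4, and the exception is n-TAagc16. It occurred in 0.917% of all 32619 promoter windows. In n-TLaag4, n-TVcac9 and n-TTagt9 it read on the strand of the neighbour, and in n-TRtcg5 on the other strand. The A box consensus, searched in the same way, was found in 1 of the 10, n-TTagt9, and in 0.454% of all windows. Its shorter core AGTNGG lies inside it and occurred in 42.6% of all windows. The window with the A box match holds its tRNA gene whole. In the 6 windows with part of a tRNA gene, an A box or B box may lie outside the window. A match is a string of letters and not a measured site.

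Most tRNA genes had no H3K27ac peak nearby, and 32 of 403 (7.94%) had a peak of each replicate within 1 kb. Replicate 1 had a peak at 67 genes (16.6%), and replicate 2 at 50 (12.4%). A peak of either replicate was found at 85 genes (21.1%), and 318 had none. When chromosomes were cut into windows of 2072 bp, the median length of a tRNA gene with its flanks, 0.475% of them held a peak of each replicate. The corresponding shares of windows were 1.36% for replicate 1, 1.02% for replicate 2 and 1.90% for either. Among other genes of at most 200 bp, mostly genes of small RNAs, 4.05% had a peak of each replicate within 1 kb. Among all other genes, which are longer, the share was 12.0%.

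The peaks of the replicates overlapped wherever both were present, which was usual over all windows too. At each of the 32 genes they overlapped each other inside the window, with a median of 518 bp covered by both. The overlap was 13 bp at n-TRacg5 and 101 bp at n-THgtg3 and n-THgtg5. Of all 2072 bp windows, 5891 (0.475%) held a peak of each replicate and 5548 (0.447%) held such an overlap. These 32 genes shared 23 distinct peaks in replicate 1 and 23 in replicate 2, since neighbouring tRNA genes can lie at a common peak. Their windows form 23 separate neighbourhoods, of which 18 hold a single tRNA gene and 5 hold 14 between them. The genes are therefore not independent observations.

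The peaks at tRNA genes had folds near the median of all peaks, and most had a q-value above 0.05. Fold enrichment and q-value are the authors' own. The median fold of the distinct peaks at the 32 genes was 2.25 in replicate 1 and 2.30 in replicate 2, against 2.18 and 2.31 over all peaks. Their folds ranged from 1.44 to 3.53 in replicate 1 and from 1.35 to 4.57 in replicate 2. Their median widths were 1067 bp and 783 bp, against 618 bp and 562 bp over all peaks. A q of at most 0.05 was reached at 3 of the 32 genes in replicate 1 and at 10 in replicate 2. These are counts of genes, some of which share a peak. Over all peaks the shares were 27.3% in replicate 1 and 41.1% in replicate 2. Such a q was reached in both replicates at n-TLaag4, n-TGccc4 and n-TQctg9, a share to be read beside 0.0750% of windows. Of these, n-TGccc4 lies on chromosome 6 and n-TQctg9 on chromosome 9, which were left out in an alternative below.

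**Figure D1:**
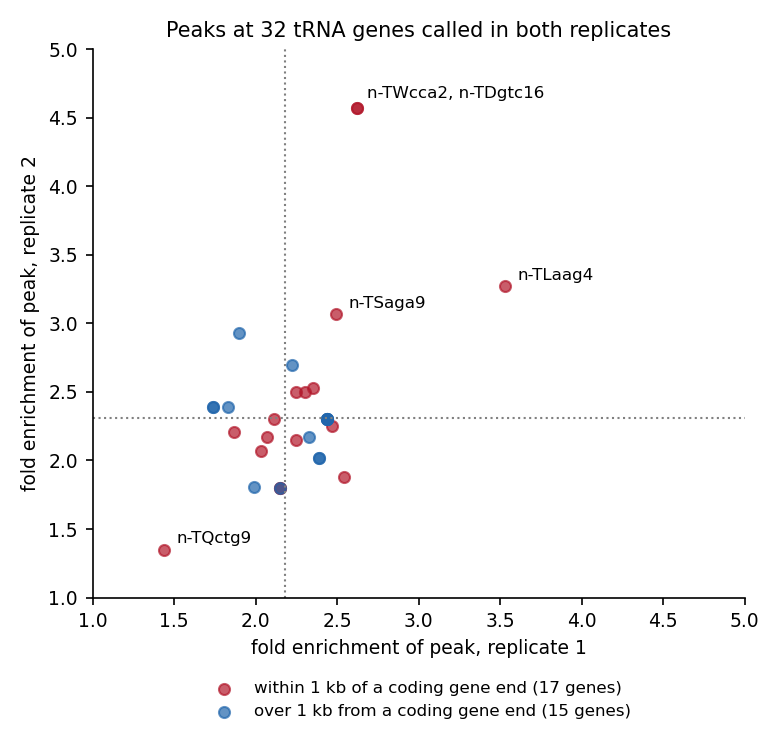
Fold enrichment of the peak at each of the 32 tRNA genes with a peak in both replicates, replicate 1 on the x axis and replicate 2 on the y axis; each point is a gene, genes at a common peak coincide, and dotted lines mark the median over all peaks (2.18 and 2.31). Of these genes n-TLaag4 has the highest fold in replicate 1 (3.53), and the pair n-TWcca2 and n-TDgtc16 has the highest in replicate 2 (4.57).

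Members near a protein-coding gene and members away from one had different shares of peaks, though the difference was not tested. Of the 403 genes, 49 lay within 1 kb of an annotated end of a protein-coding gene, at 15 to 954 bp, and these ends belonged to 39 genes. Of the 49, 17 (34.7%) had a peak of each replicate. Of the other 354, 15 (4.24%) had one. Among windows within 1 kb of a coding gene end the share was 7.59%, and among windows farther away it was 0.245%. Windows of 1 kb around either end of all protein-coding genes had peaks of each replicate in 8.79% of cases. Since a window near a coding gene can hold that gene's own peak, acetylation of the tRNA gene and of its neighbour cannot be told apart in the 17 cases.

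Transcript starts, known for coding genes from the promoter table, give a finer division. A tRNA gene lay within 1 kb of such a start in 32 cases, and 11 of them (34.4%) had a peak of each replicate, against 18.1% of windows of 1 kb around all coding starts. Of these 11 genes, the peak ran over the coding start at 6 in replicate 1 and at 6 in replicate 2. A further 21 genes lay near a coding gene end but near no listed start, and 6 of them (28.6%) had peaks of both. The table has an entry for the nearest coding gene of 45 of the 49, so some starts are not listed. A gene with an entry may also have further starts that are not listed, so this division is not exact.

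**Figure D2:**
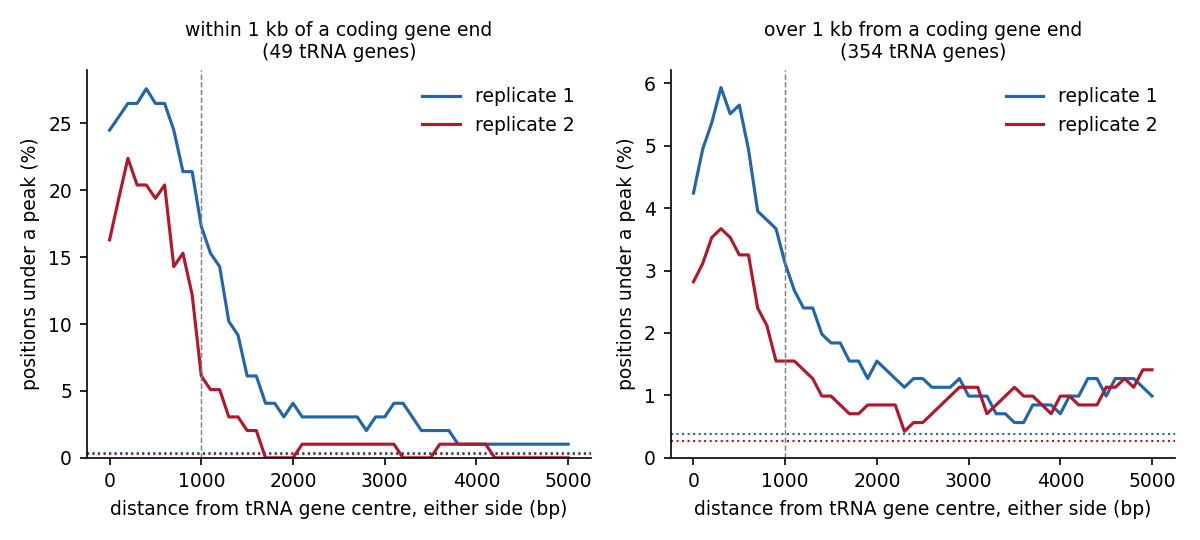
Share of positions under a peak (y axis, percent) by distance from the centre of the tRNA gene, taking both sides together (x axis, bp), for 49 genes within 1 kb of a coding gene end (left) and 354 others (right); dotted lines mark the share of the genome under peaks (0.382% and 0.265%), the dashed line the 1 kb limit, and the y axes differ. Cover is lower at the centre than 300 bp away in both panels and both replicates.

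Cover by peaks was highest beside the tRNA gene rather than on it. Among the 354 genes away from coding gene ends, 4.24% of gene centres lay under a peak of replicate 1 and 2.82% under a peak of replicate 2. At 300 bp from the centre these shares were 5.93% and 3.67%, and at 3000 bp they were 0.989% and 1.13%. Among the 49 genes near coding gene ends the shares were 24.5% and 16.3% at the centre, 26.5% and 20.4% at 300 bp, and 3.06% and 1.02% at 3000 bp. The dip at the centre is a matter of a few genes and was not tested. The whole genome had 0.382% and 0.265% of its bp under peaks. Replicate 1 peaks covered at least part of the body of 31 tRNA genes, replicate 2 peaks that of 20, and 9 bodies were touched by both.

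Among the 32 genes with a peak of each replicate, the highest fold in replicate 1 was at n-TLaag4, a leucine tRNA gene on chromosome 7 (chr7:120917517-120917598) whose neighbour is Polr3e. Its peak had a fold of 3.53 in replicate 1 and 3.27 in replicate 2, with −log10 q of 3.65 and 2.55. The peak began 301 bp from the tRNA gene in replicate 1 and 558 bp in replicate 2, beyond the start of Polr3e, so that neither the tRNA gene nor the printed promoter window lay under it. The glycine gene n-TGccc4 (chr6:86403893-86403963) lay 240 bp from an end of Tia1, which encodes an RNA-binding protein of stress granules. Its peaks had folds of 2.54 and 1.88 and −log10 q of 3.39 and 1.51, and passed it at 305 and 129 bp. The glutamine gene n-TQctg9 (chr9:64738046-64738117), 290 bp from an end of Rab11a, a GTPase of recycling endosomes, had peaks of low fold (1.44 and 1.35) with high −log10 q (7.62 and 12.5). Over all peaks of chromosome 9 the median folds were 1.44 and 1.25 and the median −log10 q were 9.76 and 8.63, against 2.20 and 2.35 and 0.808 and 1.07 on chromosomes other than 6, 9, 14 and 17. The medians of chromosome 6, where n-TGccc4 lies, are not given here. In replicate 2 the peak of n-TGccc4 had a lower fold than the median of those other chromosomes and a higher −log10 q.

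The tallest peak at a tRNA gene lay beside Tmpo, which encodes the lamina-associated polypeptide 2 (thymopoietin). The tryptophan gene n-TWcca2 (chr10:91181412-91181483) and the aspartate gene n-TDgtc16 (chr10:91182097-91182168) lie on either side of an end of Tmpo, 9793 and 10478 bp from its listed start. They shared a peak with a fold of 2.62 in replicate 1 (1722 bp wide, −log10 q of 1.21) and 4.57 in replicate 2 (812 bp wide, −log10 q of 5.43). The peak of replicate 1 covered both tRNA genes, and that of replicate 2 covered n-TDgtc16 and stopped 384 bp short of n-TWcca2. Both peaks thus lay at an end of Tmpo and away from its nearest listed start. Which end of Tmpo this is, 5′ or 3′, and whether it holds a further start were not determined here.

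The 3 arginine tRNA genes beside Mrpl58, which encodes a mitochondrial ribosomal protein, formed a like group. They are n-TRcct5 (chr11:115412981-115413053), n-TRcct3 (chr11:115413304-115413376) and n-TRtcg4 (chr11:115413779-115413851), at 307, 630 and 1105 bp from an end of Mrpl58. A peak of 1450 bp in replicate 1 (fold 2.15, −log10 q 0.69) ran over all of them. A peak of 518 bp in replicate 2 (fold 1.80, −log10 q 0.59) covered n-TRcct3 and lay between the others. The nearest listed coding start, that of Atp5h, was 6068 to 6866 bp away.

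**Figure D3:**
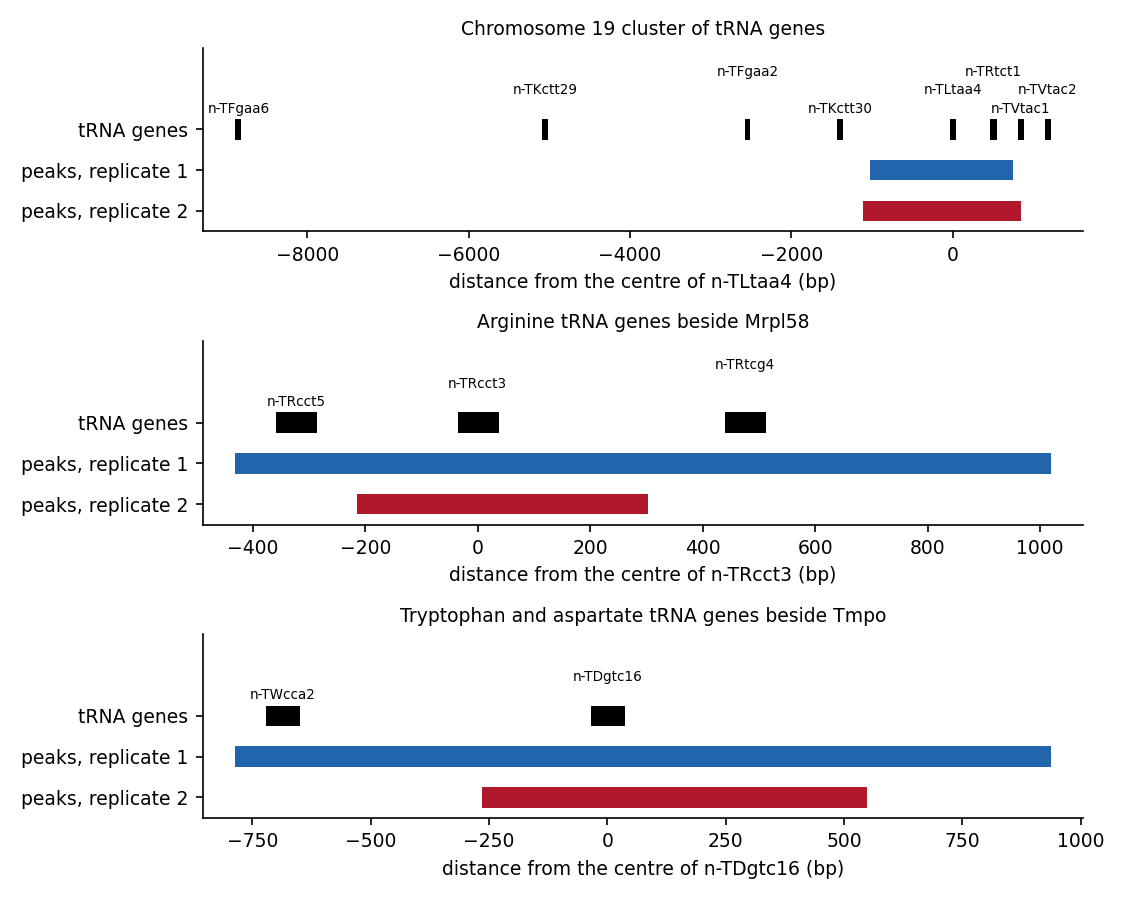
Positions of tRNA genes (black) and of the peaks of replicate 1 (blue) and replicate 2 (red) at the chromosome 19 cluster, the arginine genes beside Mrpl58 and the pair beside Tmpo, with distance in bp from the centre of the named tRNA gene on each x axis. At the chromosome 19 cluster the peaks of both replicates cover n-TLtaa4 and n-TRtct1, and n-TKctt30 lies outside them but within 1 kb.

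The remaining members near coding genes had folds of 1.87 to 3.07. At 3 of them the gene body lay under peaks of both replicates and the gene was within 1 kb of a listed start. These are the arginine gene n-TRcct1 (chr6:38533931-38534003), 858 bp from Fmc1, an assembly factor of the mitochondrial ATP synthase, the serine gene n-TStga3 (chr10:63429476-63429557), 541 bp from Ctnna3, an alpha-catenin, and the glutamate gene n-TEttc4 (chr14:79481668-79481739), inside Elf1 and 400 bp from Wbp4. The folds were 2.03 and 2.07 at n-TRcct1, 1.87 and 2.21 at n-TStga3, and 2.11 and 2.30 at n-TEttc4. The serine gene n-TSaga9 (chr4:10874064-10874145) lay 20 bp from an end of the gene 2610301B20Rik and under peaks of both replicates, with folds of 2.49 and 3.07 and −log10 q of 0.94 and 2.12. It was thus above the median fold in each replicate.

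At the other 6 the peaks touched the body in at most 1 replicate. The serine gene n-TSgct7 (chr2:119046750-119046831) lies 288 bp from the start of Knl1, a kinetochore gene, with folds of 2.07 and 2.17. The serine gene n-TScga2 (chr10:128458464-128458545) lies near Smarcc2, a subunit of the BAF chromatin remodeller, with folds of 2.47 and 2.25. The alanine gene n-TAagc9 (chr19:3576263-3576335) lies near Ppp6r3, a regulatory subunit of protein phosphatase 6, with folds of 2.30 and 2.5. The methionine gene n-TMcat9 (chr13:23530348-23530419) lies 625 bp from the histone H4 gene H4c8. Its peak was 6689 bp wide in replicate 1, the widest at any tRNA gene with peaks of both, and 1624 bp in replicate 2, with folds of 2.35 and 2.53. The isoleucine gene n-TIaat16 (chr7:28372999-28373093) near Plekhg2 had folds of 2.25 and 2.15 and peaks at 581 and 706 bp. The valine gene n-TVcac7 (chr11:48818542-48818614) near Trim41, a ubiquitin ligase, had folds of 2.25 and 2.5 and peaks at 738 and 507 bp.

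Away from coding gene ends, the clearest case was a cluster on chromosome 19. It holds 8 tRNA genes in 10.1 kb (chr19:12002236-12012338) with no coding gene in that span, and 5 of them had a peak of each replicate. All 5 shared a peak of 1772 bp in replicate 1 (chr19:12010097-12011868, fold 2.44, −log10 q 1.05) and of 1949 bp in replicate 2 (chr19:12010019-12011967, fold 2.30, −log10 q 1.18). The peak of replicate 1 lay wholly inside that of replicate 2. The leucine gene n-TLtaa4 (chr19:12011086-12011168) and the arginine gene n-TRtct1 (chr19:12011588-12011673) were covered in both, and the valine gene n-TVtac1 (chr19:12011931-12012003) in replicate 2 alone. The lysine gene n-TKctt30 (chr19:12009696-12009768) and the valine gene n-TVtac2 (chr19:12012266-12012338) lay outside, at 328 and 397 bp from the peak of replicate 1. The nearest coding gene end, that of Osbp, an oxysterol-binding protein, was 15983 bp from the stretch covered by both replicates, and the nearest listed coding start was 24402 bp or more from these genes. The other 3 genes of the cluster had no peak in either replicate.

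Some of the other members away from coding ends lay at the start of a lncRNA gene. A listed lncRNA start stood within 1 kb of 24 members that had no coding end or coding start so near, and 4 of the 24 (16.7%) had a peak of each replicate. Among all windows of 1 kb on either side of a listed lncRNA start so far from coding ends and starts, the share was 1.43%. A further 4 members lay near a coding start inside a longer gene, with no coding end within 1 kb, and had no peak in either replicate. The threonine gene n-TTcgt3 (chr11:79704650-79704721), 80 bp from the start of Gm11205, had folds of 2.33 and 2.17. The glutamine gene n-TQttg6 (chr11:95859172-95859243), 355 bp from the start of 4833417C18Rik, lay under peaks of both replicates with folds of 2.22 and 2.70. The valine gene n-TVcac9 (chr13:23446142-23446214) and the arginine gene n-TRacg5 (chr13:23446792-23446864) shared the peaks at Gm46404, with folds of 2.39 and 2.02. The peak of replicate 1 covered the whole printed window of Gm46404, and that of replicate 2 lay outside it, 337 bp from n-TVcac9 and 987 bp from n-TRacg5.

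Where no coding end and no listed start lay within 1 kb, 11 of 326 members (3.37%) had a peak of each replicate. They comprise the 5 genes on chromosome 19, n-TRtcg4 and 5 more. The histidine genes n-THgtg3 (chr2:122377363-122377434) and n-THgtg5 (chr2:122377968-122378039), inside the lncRNA gene Gm39918, had folds of 1.74 and 2.39. The peaks of the replicates there overlapped by 101 bp between the genes, with n-THgtg3 under the peak of replicate 1 and n-THgtg5 under that of replicate 2. The methionine gene n-TMcat8 (chr13:21975032-21975103) had folds of 1.90 and 2.93 and lay at the edge of its peaks, 13 bp from that of replicate 2. The glutamate gene n-TEttc6 (chr14:76152774-76152845) had folds of 1.83 and 2.39, and the methionine gene n-TMcat16 (chr15:57975983-57976055) had 1.99 and 1.81. None of these 11 reached a q of at most 0.05 in both replicates.

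The share of members with peaks was 14.9% among solitary tRNA genes and 3.85% in the large clusters. Genes at most 100 kb apart were joined, which gave 33 clusters of 2 or more with 309 genes and left 94 genes alone. Of the solitary genes 14 had a peak of each replicate, of the 49 genes in clusters of 2 to 4 it was 8 (16.3%), and of the 260 genes in clusters of 5 or more it was 10. Nearness to coding gene ends moved with clustering. Near such ends the counts were 10 of 21 solitary genes, 5 of 13 in small clusters and 2 of 15 in large clusters. Away from them they were 4 of 73, 3 of 36 and 8 of 245, and 5 of those 8 are the genes on chromosome 19. These differences were not tested, and genes of a cluster share peaks.

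**Figure D4:**
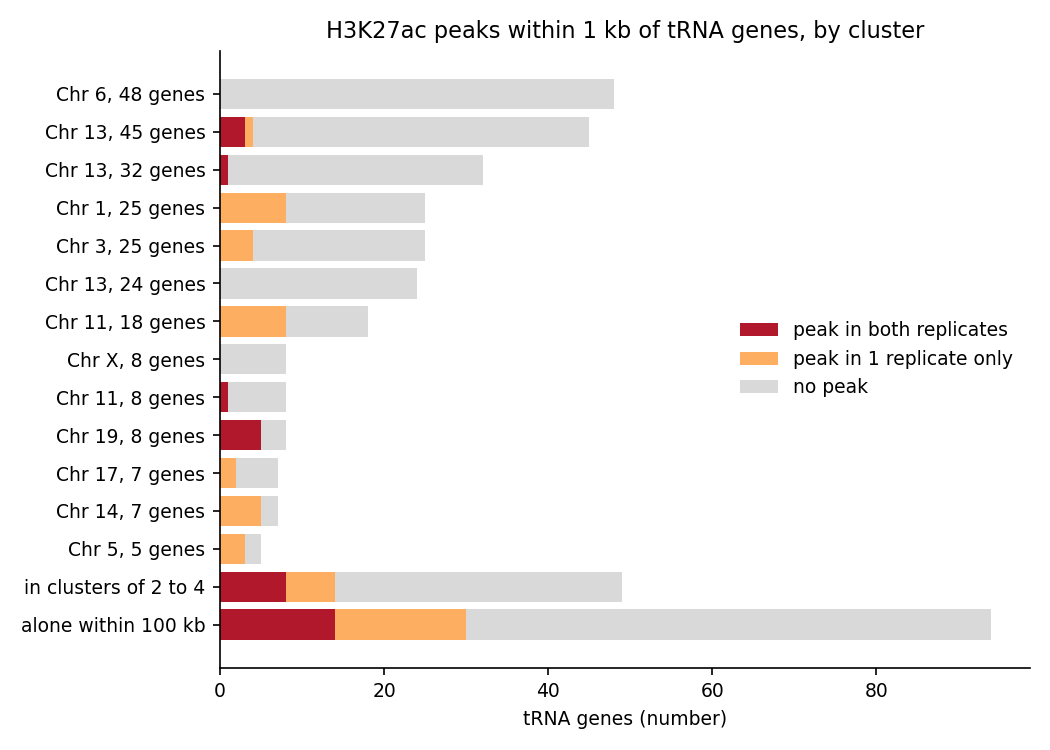
Number of tRNA genes (x axis) with a peak in both replicates, in 1 replicate only or in none, for each cluster of 5 or more genes, named by chromosome and size, and for genes in smaller clusters and alone. None of the 48 genes of the cluster on chromosome 6 has a peak within 1 kb, and 5 of 8 genes of the cluster on chromosome 19 have peaks of both replicates.

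Of the 13 clusters of 5 or more genes, 4 had a member with a peak of each replicate. The largest, 48 cysteine tRNA genes over 230 kb of chromosome 6 (chr6:48133937-48363603), had no peak of either replicate within 1 kb of any member, although peaks covered 777 bp of its span in replicate 1 and 676 bp in replicate 2. Members without a peak within 1 kb also made up the whole cluster of 24 genes on chromosome 13 (chr13:21160785-21326789) and that of 8 alanine genes on the X chromosome (chrX:136357602-136430436). A peak of either replicate was found in only 1.90% of all 2072 bp windows. How reads that map to several near-identical tRNA genes were handled is not given, so a lack of peaks need not be a lack of acetylation. The next cluster of chromosome 13 (chr13:21848022-22050767), among histone genes, had 1 gene of 32 with a peak of each replicate, n-TMcat8. The last of them (chr13:23270421-23530419) had 3 of 45, which are n-TVcac9, n-TRacg5 and n-TMcat9. On chromosome 11, 1 of 8 genes (chr11:48818542-48857055) had peaks of both, n-TVcac7.

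In several clusters members had a peak of 1 replicate, or different members had one of each, and none had peaks of both. Calls in 1 replicate alone were common. Of the 85 members with a peak of either replicate, 53 had a peak of 1 replicate only. Among all 2072 bp windows, 1.90% held a peak of either replicate and 0.475% a peak of each. On chromosome 1, 25 genes lie in 77.6 kb (chr1:171033942-171111515), with 5 under or near a peak of replicate 1, 3 near a peak of replicate 2 and none near both. The peak of replicate 1 there was 1903 bp wide, with a fold of 2.72 at n-TDgtc6, and the peak of replicate 2 had a fold of 1.43 at n-TGtcc2. On chromosome 3, 4 of 25 genes (chr3:96322074-96501518) shared a peak of replicate 1 and none had one of replicate 2. In the 18 genes on chromosome 11 (chr11:69037003-69125248) 7 had a peak of replicate 1 and 1 of replicate 2. The clusters on chromosome 14 (chr14:51063883-51090718), chromosome 17 (chr17:23533962-23550335) and chromosome 5 (chr5:125404250-125409543) had 2 and 3, 0 and 2, and 3 and 0 of 7, 7 and 5 genes in replicates 1 and 2.

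Of 14 stretches covered by both replicates inside the clusters of 5 or more genes, 9 lay over 1 kb from any tRNA gene. In the chromosome 11 cluster of 18 genes, 3060 bp were covered by both replicates, in 3 stretches at Borcs6, Vamp2 and Per1 whose nearest tRNA genes were 1996, 21489 and 14612 bp away. In the chromosome 3 cluster 3806 bp were covered by both, 3577 bp of them in 1 stretch (chr3:96486318-96489894) that lay 6855 bp from n-TQctg3, with folds of 2.03 and 2.25. In the chromosome 13 cluster of 24 the only shared stretch, of 1326 bp, was at Trim27, 6548 bp from n-TLcaa4. In the cluster of 32, stretches at Zfp184 and the histone gene H2ac11 lay 4172 and 7795 bp from a tRNA gene.

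Every amino acid was represented among the members, and 15 of 20 had a gene with a peak of each replicate. Arginine had 6 of 24 genes, of which 3 are the neighbours beside Mrpl58. Serine had 4 of 22, all near coding gene ends, and valine had 4 of 22, of which 2 are neighbours on chromosome 19. Methionine had 3 of 16. Glutamine, glutamate, histidine and leucine had 2 each, of 16, 20, 11 and 25, and alanine, aspartate, glycine, isoleucine, lysine, threonine and tryptophan had 1 each, of 33, 16, 28, 16, 26, 17 and 8. Asparagine, cysteine, phenylalanine, proline and tyrosine, with 103 genes together, had none. Of 57 cysteine genes 49 lie on chromosome 6, so their count is largely that of the cluster described above. By anticodon, 24 of 48 had a gene with peaks of both, led by CCT (arginine) with 3 of 5 and CAT (methionine) with 3 of 16.

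**Figure D5:**
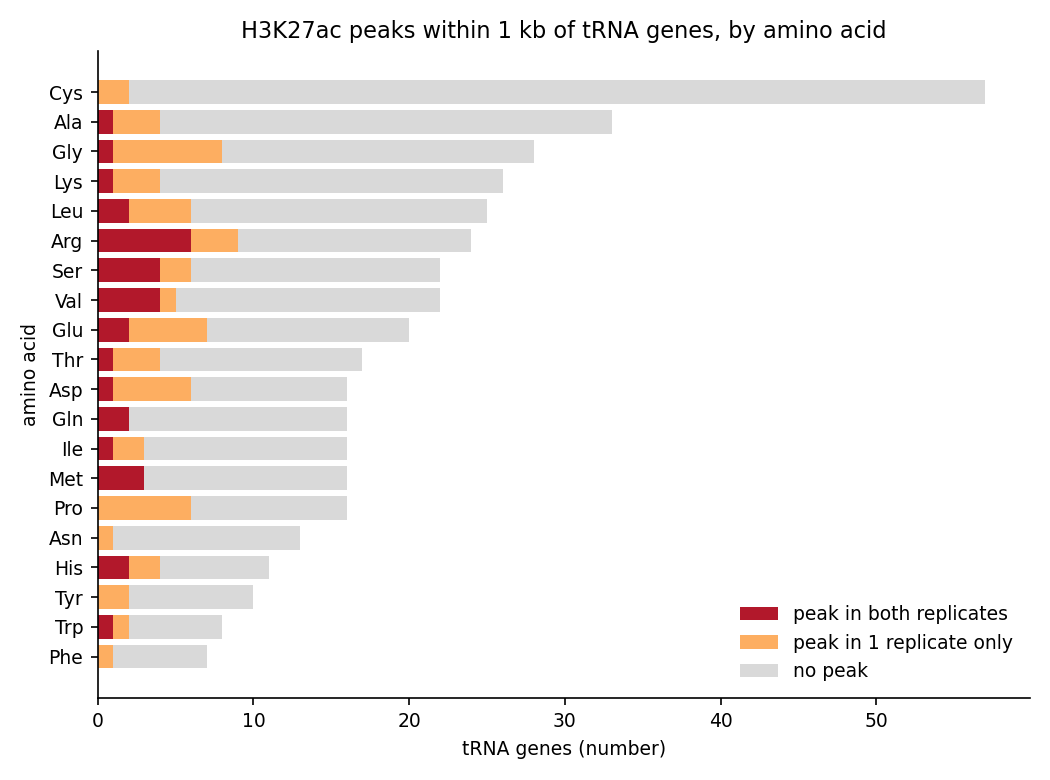
Number of tRNA genes (x axis) with a peak in both replicates, in 1 replicate only or in none, for each amino acid (y axis). Arginine has the most genes with peaks of both (6 of 24), and cysteine, the amino acid with the most genes (57), has none.

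The proteins that make and use tRNA were set beside the genes, from lists of 87 protein-coding genes. Of these, 24 (27.6%) had a peak of each replicate within 1 kb of a gene end, against 17.1% of all protein-coding genes. Among Pol III subunits there were 4 of 18, which are Polr3e (folds 3.53 and 3.27), Polr1d (2.22 and 2.60), Polr3c (1.59 and 2.67) and Polr3d (1.93 and 2.09). Among Pol III factors there were 6 of 17. Gtf3c2 (1.90 and 2.07) and Gtf3c6 (2.33 and 2.31) encode parts of TFIIIC, Gtf3a (2.31 and 1.85) encodes TFIIIA of the 5S rRNA genes, and Maf1 (2.27 and 2.55) encodes a repressor of Pol III. Snapc1 (2.24 and 2.21) and Snapc5 (1.19 and 1.11) encode parts of the factor that serves snRNA genes.

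Among tRNA processing and export genes there were 8 of 29. Of the 24 genes with a peak of each replicate, Tsen34 had the highest fold in both. It encodes a subunit of the tRNA splicing endonuclease, and had folds of 4.56 and 4.88 and −log10 q of 5.02 and 6.01. Higher folds in replicate 1 were found at Gtf3c1 (5.03), another part of TFIIIC, and Nars (4.71), the asparaginyl-tRNA synthetase, neither of which had a peak in replicate 2. Xpot, the tRNA exporter, had 3.85 and 2.42, and Ssb, which encodes the La protein that binds the ends of new Pol III transcripts, had 2.62 and 3.12. Pop4 (2.51 and 2.41), Pop7 (2.83 and 2.04) and Rpp14 (2.26 and 1.97) belong to RNase P, which trims the 5′ end of tRNA. Among aminoacyl-tRNA synthetases and their scaffold there were 6 of 23, which are Dars (1.75 and 3.15), Lars (2.29 and 3.11), Mars1 (2.48 and 2.24), Vars (1.99 and 2.63), Yars (2.15 and 2.24) and Aimp1 (2.33 and 2.13).

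Other small RNA genes of Pol III had a peak of each replicate in 4 of 9 cases. Of the 10 listed, Rn7s6 was not matched in the annotation table. The share within 1 kb was 4.05% among other genes of at most 200 bp and 12.0% among all other genes. The 4 are Rn7s1 (2.13 and 2.12) and Rn7s2 (1.83 and 2.61), the genes of the signal recognition particle RNA, Rn7sk (1.26 and 1.32), whose RNA holds back transcription elongation, and Rpph1 (2.21 and 1.51), the RNA of RNase P. Rn7sk lies on chromosome 9, and its low folds went with −log10 q of 6.60 and 11.5. Rpph1 lies on chromosome 14, with −log10 q of 0.90 and 17.5. Nearness to coding genes was not taken into account for this list, so a peak here may belong to a neighbour.

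The replicates and the cell type were checked on the lists as a whole. Replicate 1 had 12228 peaks and replicate 2 had 9429 on these chromosomes, and 27.3% and 41.1% of them had a q of at most 0.05. Of 8 marker genes of double-negative thymocytes 3 (Cd3e, Tcf7 and Dntt) had a gene-end peak in both replicates, and Ptcra, Il2ra, Rag1, Notch1 and Gata3 did not. The share among all protein-coding genes with such a peak in both replicates was 17.1%. A peak of either replicate was found at 5 of the 8. Of 15 markers of B cells, myeloid cells, erythroid cells and thymic stroma none had a gene-end peak in either replicate. No share of all protein-coding genes with a peak of either replicate is given to read beside these counts. The lists are short, and the difference between them was not tested. Read counts are no part of these lists, which leaves the sequencing depth unknown and gives no counting interval.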

How the data were processed

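H3K27ac chromatin immunoprecipitation and sequencing was deposited as 1 peak list for each of 2 samples. The submitters' processing notes name Bowtie2 and the mm10 build, and MACS 1.4.2. The lists have the broad peak layout of MACS2, which makes unclear what version wrote them. Per the peak names, which hold 1 library index and the tag rmdup, each sample was called on its own without duplicate reads. The cutoff, the use of the input and the handling of reads that map to several near-identical tRNA genes: none of these is given in the sources used here. Peak heights are fold enrichments, a ratio deposited by the authors. The −log10 p-values and −log10 q-values are the authors' as well, and so is the score, which was not used.

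Gene positions came from the RefSeq table of GRCm38.p6, the same build, with starts counted from 1. Transcript starts were derived from the RefSeq promoter table, which is not complete. Amino acid and anticodon were read from the gene symbol. A gene was called when at least 1 bp of its window lay under a peak of each replicate. Genes listed below 3 Mb of a chromosome were left out of the counts. Background windows of 2072 bp were laid end to end from 3 Mb to the last gene. tRNA genes at most 100 kb apart on a chromosome were joined into clusters. Overlaps were computed with Python 3.11.15, numpy and pandas, and the overlap code was checked on planted peaks. The members and lists were chosen with earlier results of these data known.

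Every tRNA gene with peaks of both replicates is named (the rule allowed up to 40), as are clusters of 5 or more genes, coding genes near named tRNA genes, and up to 6 members of each pathway list with peaks of both, by mean fold. Genes named for 1 replicate, for unmarked windows or for shared stretches inside clusters were chosen after their values were seen. Alternatives were q of at most 0.05 and 1e-05, other windows, overlaps, joining distances and chromosome sets, and each replicate alone.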

Additional observations from a re-analysis of the deposited data

How the results depend on the processing

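The count of 32 tRNA genes stayed within 1.5 times with windows of 500 bp (28) and 2.5 kb (38), with an overlap of 200 bp (31), with peaks that also overlap each other (32) and without chromosomes 6, 9, 14 and 17 (27 of the members left). The share of all windows with a peak of each replicate moved more, from 0.475% to 0.296% at 500 bp and 1.03% at 2.5 kb. Joining at 25 kb or 500 kb gave 8 and 9 clusters with such a gene against 8, and a limit of 5 kb for a near coding end left 13 genes away from ends against 15.

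The q-value decided most calls. The shares of windows below are to be read beside the tRNA gene counts alone. Pathway genes were called at gene ends, and with all peaks 17.1% of all protein-coding genes had such a call. That share is not given for the other settings. With q of at most 0.05, 3 tRNA genes remained (3 amino acids), all 3 near coding gene ends and 0 away from them, with 0 gene bodies under peaks of both, 1 cluster and 3 pathway genes (24 with all peaks), against 0.0750% of windows. With q of at most 1e-05, 1 tRNA gene was called (1 amino acid), near a coding end, with 0 away from ends, 0 bodies, 0 clusters and 1 pathway gene, against 0.0215% of windows. This tRNA gene is n-TQctg9 on chromosome 9, where all peaks had a median −log10 q of 9.76 in replicate 1 and 8.63 in replicate 2. With the gene body alone, 9 tRNA genes were called, 6 near and 3 away from coding ends, from 6 amino acids and 3 clusters, and 8 pathway genes had the end itself under peaks, against 0.123% of windows of gene length. With a peak in either replicate the counts were 85 tRNA genes, 31 near and 54 away, 17 clusters, 42 bodies, 20 amino acids and 55 pathway genes, against 1.90% of windows. With 1 replicate left out, replicate 1 first, the counts were 50 and 67 tRNA genes, 27 and 42 away from coding ends, 23 and 25 near them, 13 and 15 clusters, 18 and 20 amino acids, 20 and 31 bodies, and 36 and 43 pathway genes, against 1.02% and 1.36% of windows.

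No paired analysis was possible because the H3K27ac samples form a single group and no groups were compared. Precision is limited by 2 samples without read counts or a background measured in the same way.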

Other observations

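Members with a peak of 1 replicate alone numbered 53, with 35 in replicate 1 and 18 in replicate 2. The distinct peaks at these genes, 20 and 12, had median folds of 2.20 and 2.12, close to those at the genes called in both. In replicate 2 these peaks were narrow, with a median of 265 bp. The tallest of them in replicate 1 had a fold of 3.81 and a −log10 q of 3.38. It covered the proline genes n-TPtgg8 (chr7:98815415-98815486) and n-TPagg7 (chr7:98815676-98815747), 19598 and 19337 bp from the nearest coding gene end, that of Wnt11. The tallest in replicate 2 had a fold of 4.19 and a −log10 q of 4.03, and lay near the cysteine gene n-TCgca52 (chr17:71599271-71599342).

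Of the 34 tRNA genes inside the span of a protein-coding gene, 3 had a peak of either replicate, and each of those had peaks of both and lay within 1 kb of a coding gene end. Of the 34, 27 lay farther from any coding end, and none of these had a peak in either replicate. A peak of either replicate was found in 1.90% of all windows of 2072 bp. Among all 354 members over 1 kb from a coding end the share was 15.3%. These differences were not tested. Outside all annotated genes, 23 of 264 (8.71%) had peaks of both, against 0.475% of all windows.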
